A study of Mus musculus with 88 samples.

Results

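Striated muscle was compared with inner organs in bulk RNA sequencing libraries of male C57BL/6NTac mice. The muscle side was heart and 4 leg muscles: soleus, tibialis, gastrocnemius and EDL (extensor digitorum longus), and the organ side held kidney, liver, lung and spleen. Tissue and mouse were read from the sample titles, and 43 wild-type (WT) libraries of 5 mice were taken, 25 of muscle and 18 of organs, out of 88 libraries in all. WT kidney and WT spleen had 4 mice each and every other tissue 5. The other 45 libraries, 25 of muscle and 20 of organs, came from 5 Cdh15 knockout (KO) mice and served as a repeat in other animals. Cdh15 encodes M-cadherin, an adhesion protein of muscle precursor cells and fibres, and per its title the study followed its part in fetal muscle formation. Mice of either genotype, aged 65 to 85 days, had fasted 18 h before tissue was taken, so every level below is that of fasted tissue. The labels give no further detail of the KO allele. Each mouse gave up to 9 libraries, so libraries of 1 tissue came from separate animals, but libraries of different tissues did not.

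Striated muscle is made of fibres packed with sarcomeres, in which myosin thick filaments pull on actin thin filaments anchored at Z discs. Calcium released from an internal store starts each contraction, and creatine kinase, glycogen breakdown and mitochondria supply the ATP. Many of these proteins exist as a muscle form and a general form from separate genes, while kidney, liver and lung are built largely of epithelial cells and the spleen of blood and immune cells.

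Libraries held 8.21 M to 25.14 M counts (M, 1e6), with a median of 20.5 M in WT muscle and 18.8 M in WT organs. Heart and the 4 organs carried their defining markers. In CPM (counts over the TMM-scaled library total, times 1e6), the WT heart held Myh6 at 26668 ± 848 (SD, n = 5) and the liver Alb at 85193 ± 7974 (n = 5). The kidney held Kap at 14767 ± 729 (n = 4), the lung Sftpc at 5560 ± 552 (n = 5) and the spleen Cd79a at 548 ± 61.9 (n = 4). The fast myosin Myh4 reached 65083 ± 19092 in the WT soleus, known as a slower muscle, against 82119 ± 8636 to 130355 ± 10879 in the other leg muscles. No marker of slow fibres is given here for soleus. Its libraries also varied: the thick filament gene Mybpc2 stood at 174 CPM in the KO soleus library of mouse 3805666, against 2560 to 3726 in the other KO soleus libraries. Small amounts of heart genes were found in lung (Myh6 60.7 ± 19.3 CPM, n = 5), and the lung gene Scgb1a1 stood at 14.3 ± 27.3 CPM in heart. The WT spleen library of mouse 3805673 stood apart, with 13.4% of its counts in mitochondrially encoded transcripts against 4.25% to 4.73% in the other 3. The KO spleen library of mouse 3817943 had 8.88% against 4.58% to 4.98%. The test of muscle against organs was therefore also run in each genotype without these libraries, a choice made after seeing the data. So were the shares of library counts and, in WT, the count of genes whose muscle and organ libraries did not overlap. The other results were not.

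A few genes filled much of each muscle library. The 50 most abundant genes took 47.3% to 55.2% of the counts of the 25 WT muscle libraries (median 50.9%) and 17.3% to 42.4% of the 18 organ libraries (median 31.3%), so the sides did not overlap. Genes of the thick filament, thin filament, Z disc and M band lists took together 7.71% to 25.3% in muscle (median 20.7%) and 0.0268% to 0.244% in organs (median 0.0914%). Within muscle the heart was the lowest, at 7.87% ± 0.121 (SD, n = 5), and gastrocnemius the highest, at 24.3% ± 0.771. Mitochondrially encoded transcripts took 13.4% to 35.1% in muscle (median 20.2%) and 4.15% to 23.1% in organs (median 8.82%). Here the sides overlapped: kidney, at 22.8% ± 0.339 (n = 4), lay above the mean of each leg muscle, and heart stood at 34.4% ± 0.563. Genes of cytosolic ribosomal proteins took 0.680% to 0.977% in muscle (median 0.864%) and 0.915% to 6.01% in organs (median 1.80%), with spleen at 5.64% ± 0.476 (n = 4). Per mouse, the mean over muscles minus the mean over organs was 22.0 ± 1.94, 18.4 ± 0.533 and 11.9 ± 2.21 percentage points for the first 3 groups and -1.66 ± 0.394 for the last (SD, n = 10 mice, WT and KO together). Without spleen the last was -0.655 ± 0.0921. The WT mouse without a spleen library and that without a kidney library entered with the organs they had. These SDs can therefore also hold the effect of a missing organ. All 10 mice had the same sign in each group, and the exact 2-sided sign-flip permutation p was 0.00195 for each, the smallest that 10 mice allow.

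**Figure D1:**
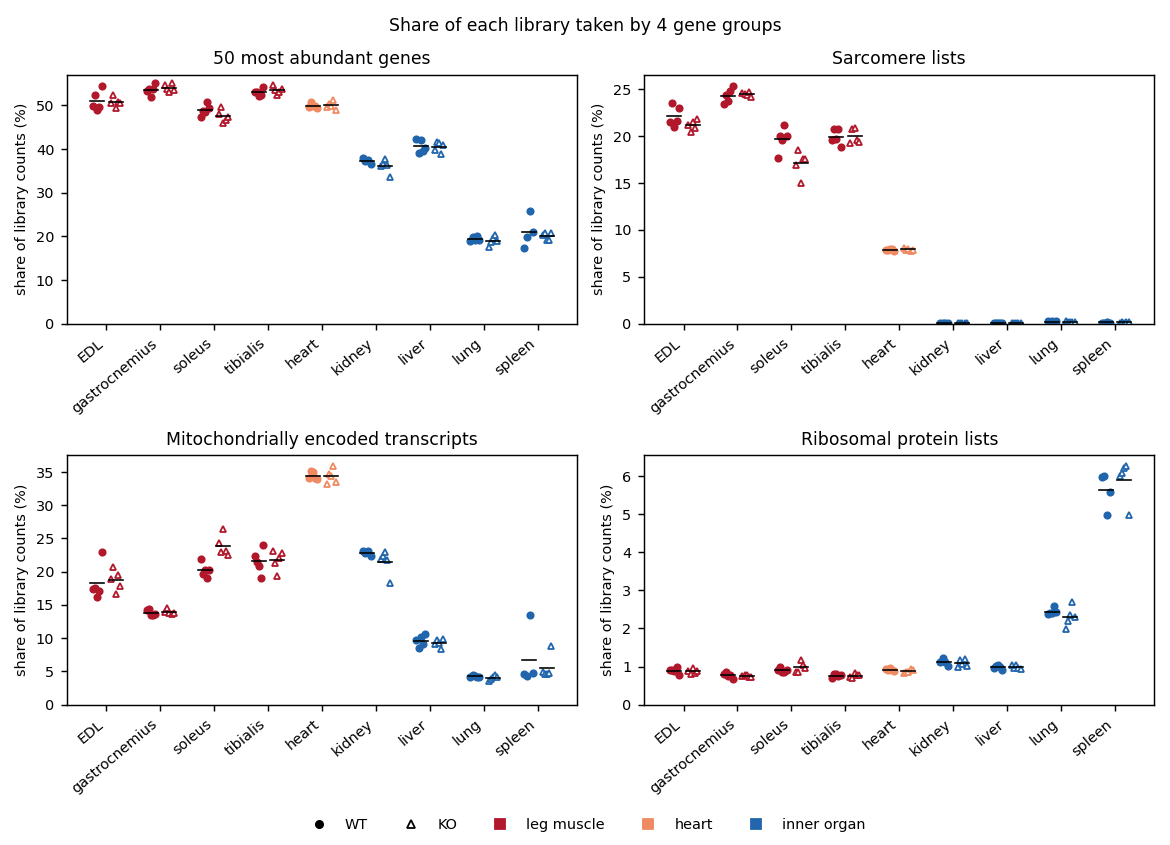
Share of library counts (%, y axis) taken by the 50 most abundant genes, sarcomere genes, mitochondrially encoded transcripts and ribosomal protein genes in each of the 9 tissues; circles are WT and triangles KO libraries, and short lines are means of 4 or 5 mice. Sarcomere genes stayed at or under 0.244% in every WT organ library and at or above 7.71% in every WT muscle library.

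Most genes differed between the sides. The log2 fold change was the mean of the 5 muscle tissues minus the mean of the 4 organs, each tissue weighing equally, tested with edgeR at a Benjamini-Hochberg adjusted p of 0.05. Of 16842 genes tested in WT mice, 6799 (40.4%) were higher and 7399 (43.9%) were lower in muscle, 84.3% in all. The median log2 fold change of all tested genes was -0.14 and the median size 1. Against a minimum change of log2 1, 3064 genes (18.2%) were higher and 3758 (22.3%) lower. With so large a background, passing the threshold says little about any gene, and the text below turns on size, on whether libraries overlap and on how many tissues take part. The split between higher and lower depended on the scaling: with library totals alone, which let the abundant muscle genes push all others down, 3439 genes were higher and 11247 lower, and the median of all genes moved by -0.82. DESeq2 size factors and upper quartile factors moved it by -0.05 each.

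The KO mice gave nearly the same picture. There 6761 of 16710 tested genes (40.5%) were higher and 7498 (44.9%) lower, and 85.3% passed either way. Of the WT genes that could be tested in KO, 6542 of 6755 higher genes (96.8%) and 7039 of 7361 lower genes (95.6%) passed in the same direction, and 1 gene, Khdrbs3, passed in opposite directions (-0.15 in WT and 0.13 in KO). The fold changes of both genotypes had a Pearson r of 0.992 across 16639 genes, which are not independent replicates, and 91.5% of them lay within 0.5 of each other. The difference between KO and WT in this contrast was tested directly over 88 libraries: 0 of 17151 genes passed with edgeR (percent called 0) and 0 with DESeq2, while 776 had an unadjusted p under 0.05, below 5% of the genes tested (858). Genes with 0 reads in a tissue can have an unbounded error in these fits and then cannot pass: in WT 1914 tested genes had such a tissue, and 952 of them were among the 2644 genes not called. Cdh15 was such a gene in the test of the difference, with an SE of 3178. The gene of smallest p, the protocadherin Pcdhgb5, had a difference of -1.65 (SE 0.35, edgeR adjusted p = 0.237). It was the 1 gene that passed when mouse 3793546 was left out. The targeted gene itself followed the labels. Cdh15 stood at 15.1 to 31.9 CPM (median 24.2) in 20 WT leg muscle libraries and at 1.43 to 4.93 CPM (median 3.22) in 20 KO ones, with no overlap, and at 0 to 2 reads in hearts and organs of both genotypes.

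A stricter count asked for all 25 WT muscle libraries to lie above all 18 organ libraries. That held for 1135 of the 16842 genes (6.74%), and 639 genes (3.79%) had all organ libraries above all muscle libraries. In KO the counts were 1133 (6.78%) and 615 (3.68%). Of the WT genes, 1001 (88.2%) and 515 (80.6%) did so in both genotypes. Without the WT spleen library of mouse 3805673 the WT counts were 1182 and 695. They were 2052 and 1092 without heart, and 501 and 1610 with library totals alone, where the organ side held more genes.

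Breadth differed between the directions. Of the 6799 genes higher in muscle, 1987 had the means of all 5 muscles above all 4 organ means, 1245 had the 4 leg muscles but not the heart above them, and 456 had the heart alone. A further 1957 had no muscle above every organ, so their call rested on the mean. Of the 7399 genes lower in muscle, 1739 had all 4 organs above all 5 muscles. In 805 genes a single organ lay above all muscles: spleen in 283, lung in 199, liver in 178 and kidney in 145.

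**Figure D2:**
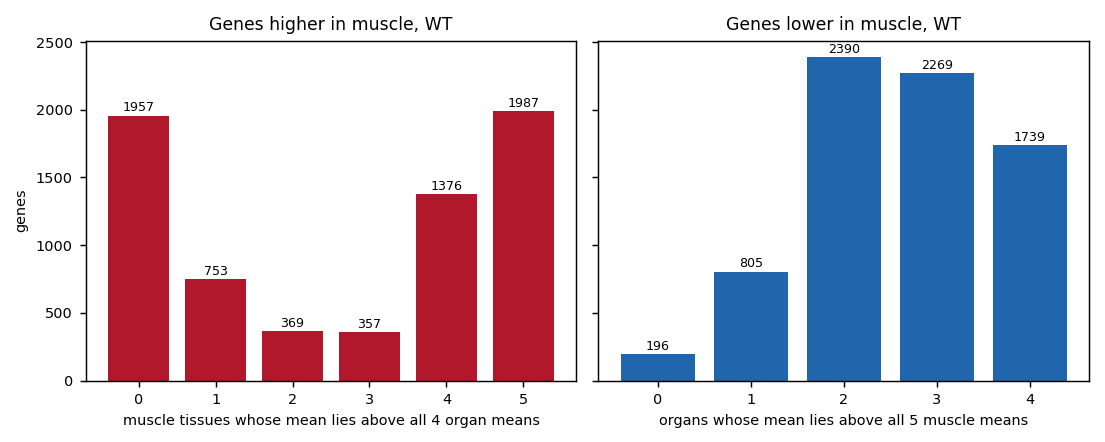
Number of genes (y axis) higher (left) or lower (right) in WT muscle, by how many muscle tissue means lie above all 4 organ means or how many organ means lie above all 5 muscle means. The higher genes gather at 0 (1957 genes) and at 4 and 5 muscles (1376 and 1987), the lower genes at 2 and 3 organs (2390 and 2269).

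Genes whose libraries did not overlap in either genotype were ranked by the difference of mean log2(CPM + 1), which places genes of low level further down than their fold changes would. The 12 largest differences included genes of the sarcomere (Acta1, Ttn and Myl1), of calcium release (Trdn) and of energy supply (Ckm and Pygm), and the translation factor Eef1a2. Several are followed here from gene to promoter, since they carry the contrast. Skeletal alpha-actin, Acta1 (Entrez 11459, mm10 chromosome 8, 123891758 to 123894775), is the actin of the thin filament. It ranged from 134 to 32105 CPM in 25 WT muscle libraries (median 22756) and from 0 to 1.65 CPM in 18 organ libraries (median 0.0824). The heart made up the low end, at 165 ± 32.4 (SD, n = 5), above every organ library. Ckm (Entrez 12715, chromosome 7, 19411094 to 19421583), the cytosolic creatine kinase of muscle, ran from 1230 to 23652 CPM (median 16019) against 0 to 2.57 (median 0.386), with a log2 fold change of 14.43 in WT and 15.15 in KO. Titin, Ttn, the giant spring protein that spans from Z disc to M band, ran from 4185 to 24194 CPM (median 14837) against 0.291 to 27.2 (median 5.55), a log2 fold change of 11.47 (SE 0.14, edgeR adjusted p = 3.54e-45) in WT and 11.66 in KO.

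Other genes of these 12 showed the same gap. The light chain Myl1 of fast myosin stood at 22.3 to 11169 CPM (median 7867) in muscle and at 0 to 1.23 (median 0.164) in organs. Xirp2, an actin-binding repeat protein, stood at 529 to 4886 CPM (median 3354) against 0 to 1.38 (median 0.125). Cmya5 had a log2 fold change of 11.68, Nrap of 11.86 and the glycogen phosphorylase Pygm of 10.47. Eef1a2, a translation factor, had 12.72 with 872 to 1714 CPM in muscle and 0 to 1.73 in organs, and heart, at 917 ± 29.6, was near the leg muscles. For Acta1, Myl1, Xirp2, Trdn and Mybpc2 an organ tissue held 3 or fewer reads over its libraries, and no fold is given.

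**Figure D3:**
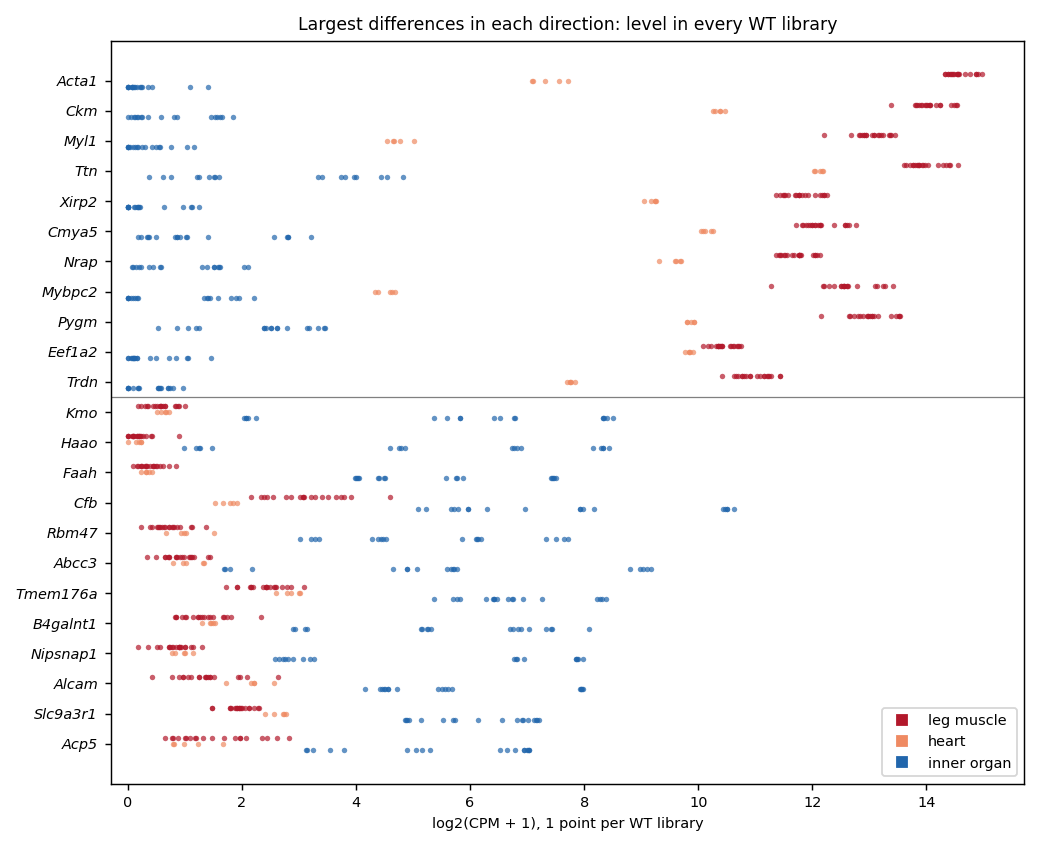
Level as log2(CPM + 1) (x axis) of genes with the largest difference in each direction (y axis, 11 higher and 12 lower in muscle; 1 more higher gene is not shown), 1 point per WT library; dark red marks leg muscle, orange heart and blue organs. Within each gene no organ point reaches a muscle point among the genes higher in muscle, and no muscle point reaches an organ point among those lower; Mybpc2, Myl1 and Acta1 spread widest, with heart far below the leg muscles.

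Of the 12 genes, 10 had a promoter in the RefSeq table (GRCm38.p6), searched on both strands in the 250 bases before the start. Shown are the 250 bases before the start of 4 promoters that held a match to a MEF2 site or CArG box, the sites of muscle and serum response factors, or to at least 3 of the motifs. Capitals mark the matches. The E-box was searched as CAGCTG. An MCAT element was taken as the letters CATTCC, and a TATA box as the word TATAAA. MEF2 sites can overlap a TATA box. Acta1 (chr8:123894776-123895025, minus strand) held an E-box, a CArG box, an MCAT element and a TATA box in that order. Myl1 (chr1:66945057-66945306, minus strand) held an E-box, then a TATA box and an MCAT element that both read on the opposite strand. Ttn (chr2:76982548-76982797, minus strand) and Xirp2 (chr2:67445752-67446001, plus strand) each held 1 MEF2 match.
Acta1: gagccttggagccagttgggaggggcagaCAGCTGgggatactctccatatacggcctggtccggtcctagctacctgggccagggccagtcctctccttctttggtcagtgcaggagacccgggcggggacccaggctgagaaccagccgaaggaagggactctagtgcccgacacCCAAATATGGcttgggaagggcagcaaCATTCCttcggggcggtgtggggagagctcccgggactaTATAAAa
Myl1: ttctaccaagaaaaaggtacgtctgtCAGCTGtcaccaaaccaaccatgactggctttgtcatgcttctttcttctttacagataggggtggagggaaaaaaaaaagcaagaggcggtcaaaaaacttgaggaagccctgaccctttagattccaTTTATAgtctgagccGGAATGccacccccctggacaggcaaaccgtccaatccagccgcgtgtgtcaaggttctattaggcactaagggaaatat
Ttn: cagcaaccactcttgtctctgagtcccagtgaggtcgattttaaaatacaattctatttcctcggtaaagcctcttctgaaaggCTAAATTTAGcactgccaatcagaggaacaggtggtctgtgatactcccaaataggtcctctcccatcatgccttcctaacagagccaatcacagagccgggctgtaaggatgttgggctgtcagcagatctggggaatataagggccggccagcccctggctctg
Xirp2: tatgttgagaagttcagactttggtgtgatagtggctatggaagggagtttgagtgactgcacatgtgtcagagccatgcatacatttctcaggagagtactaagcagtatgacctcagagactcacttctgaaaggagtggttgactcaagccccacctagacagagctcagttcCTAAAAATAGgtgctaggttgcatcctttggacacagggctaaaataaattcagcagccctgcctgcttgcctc

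A promoter was at hand for 13185 of the 16842 tested genes. A MEF2 match stood in 1.77% of all of these, in 38 of 795 (4.78%) of the genes with all muscle libraries above in both genotypes and in 3 of 414 (0.725%) of those with all organ libraries above. For 66 sarcomere genes it was 12 (18.2%). CArG box matches stood in 1.17% of all promoters, 2.39% of the muscle-above, 0.242% of the organ-above and 10.6% of the sarcomere promoters. For the E-box the shares were 12.4%, 15.2%, 10.9% and 33.3% in the same order, for the MCAT element 10.9%, 10.6%, 8.94% and 28.8%, and for the TATA box 7.84%, 9.43%, 7.005% and 22.7%. A match is a run of letters and was not tested for binding.

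Most genes of the sarcomere lists were higher in muscle, but in the filament lists fewer had all muscle libraries above all organ libraries. Lists of genes are described by counts and medians, to be read against the 40.4% of all genes higher, the 43.9% lower and the median of -0.14. Of all genes, 6.74% had all muscle libraries above and 3.79% all organ libraries above. All but 3 of the list members in the table passed the filter on low counts. Of 22 thick filament genes, 18 were higher and 3 lower in muscle (median 8.98, or 8.91 with genes at 0 reads in a tissue set to their bound). Of 20 thin filament genes, 17 were higher and 2 lower (median 7.72, with bounds 7.26). In the Z disc and titin list 27 of 27 were higher (median 8.62), and in 20 of them all muscle libraries lay above all organ libraries. The M band, which holds thick filaments in register, had 13 of 13 higher (median 10.45), 12 of them with all muscle libraries above. Its member Myom2, a myosin crosslinker, stood at 1224 to 2981 CPM (median 2035) in muscle and 0 to 17.5 (median 1.88) in organs, with heart, at 1822 ± 246, within the range of the leg muscles. Actn2, the Z disc actinin of both muscle kinds, had a log2 fold change of 10.54, and Des, the intermediate filament desmin, 6.95.

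Genes of calcium handling and excitation were higher too. In the list of calcium release and uptake 28 of 28 genes were higher (median 7.97). The pump of the calcium store in fast fibres, Atp2a1, had a median of 32643 CPM over muscle libraries but 0.96 ± 0.332 in heart (SD, n = 5), where organ libraries held 0 to 3.31. The release channel Ryr1 did the same, with a median of 6227 CPM over the muscle libraries and 0.28 ± 0.105 in heart. Sarcalumenin, Srl, which binds calcium in the store, was high in heart too, at 603 to 2863 CPM (median 2203) against 0.25 to 3.52 (median 1.27), a log2 fold change of 10.41. Of 19 gap junction and ion channel genes, 18 were higher and 1 lower (median 7.18). The sodium channel subunits Scn4a and Scn4b had 8.62 and 8.45, with heart at 34.6 ± 2.77 and 39.3 ± 6.37 CPM, the lowest of the muscles for each. Of 21 genes of the dystrophin complex, which ties the fibre to its matrix, 20 were higher and 1 lower (median 3.80). In 18 the libraries did not overlap. Itgb1bp2, melusin, stood at 69.6 to 113 CPM (median 88.9) against 0 to 1.06 (median 0.265), and varied little among the muscles.

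Genes of energy supply were higher as well, by less. In the citric acid cycle list 26 of 27 were higher and 0 lower (median 2.03), in respiratory complex I 36 of 37 and 0 (median 1.76), and in complexes III to V 36 of 38 and 2 (median 1.85). All 13 mitochondrially encoded transcripts were higher (median 2.01). Idh3a, a subunit of isocitrate dehydrogenase, stood at 386 to 743 CPM (median 572) against 17.3 to 89.8 (median 32.7). For these lists the heart median was above that of the leg muscles, for example 2.28 against 1.63 in complex I.

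Fat, ketone and amino acid use were closer to the background. Of 26 fatty acid oxidation genes, 25 were higher and 1 lower (median 1.35), and 18 were higher and 6 lower with library totals alone. In 4 of them all muscle libraries lay above all organ libraries. The summed list had a median of 10827.5 CPM in liver, above each leg muscle (5176 to 10191) but below heart (22307). Kidney, lung and spleen had 5931, 2000 and 778. The heart carrier of fatty acids, Fabp3, stood at 230 to 2590 CPM (median 534) against 0 to 41.8 (median 3.49), with heart at 2435 ± 146. For the use of branched-chain amino acids and ketone bodies 20 of 20 were higher (median 0.73), but with library totals alone 6 were higher and 10 lower and the median was -0.09. This summed list had medians of 4231 CPM in kidney and 3317 in liver, above every muscle (1717 to 3138). Lung and spleen had 459 and 331. Oxct1, which lets tissues burn ketone bodies, was high in kidney (855 CPM) as in heart (845 ± 66.8) and low in liver (4.45), beside a log2 fold change of 2.83.

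Sugar metabolism split by gene. Of 39 genes of glycogen and glycolysis, 25 were higher and 14 lower (median 3.06), and in 17 all muscle and in 4 all organ libraries lay above. Pygm ran from 894 to 11900 CPM (median 7995) against 0.448 to 10.02 (median 4.70). Aldoa, the aldolase of muscle, had a log2 fold change of 5.39. The muscle form of enolase, Eno3, had 8.64 at 712 to 5040 CPM (median 3807) against 4.75 to 11.8 (median 6.38). In the creatine and adenylate list 8 of 12 were higher and 3 lower (median 4.49). Myoglobin, Mb, which stores oxygen, had 10.95 with 563 to 7458 CPM (median 2685), highest in heart at 7141 ± 220. Mitochondrial creatine kinase, Ckmt2, had 11.93 with 459 to 1510 CPM (median 1112) against 0 to 2.86.

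**Figure D4:**
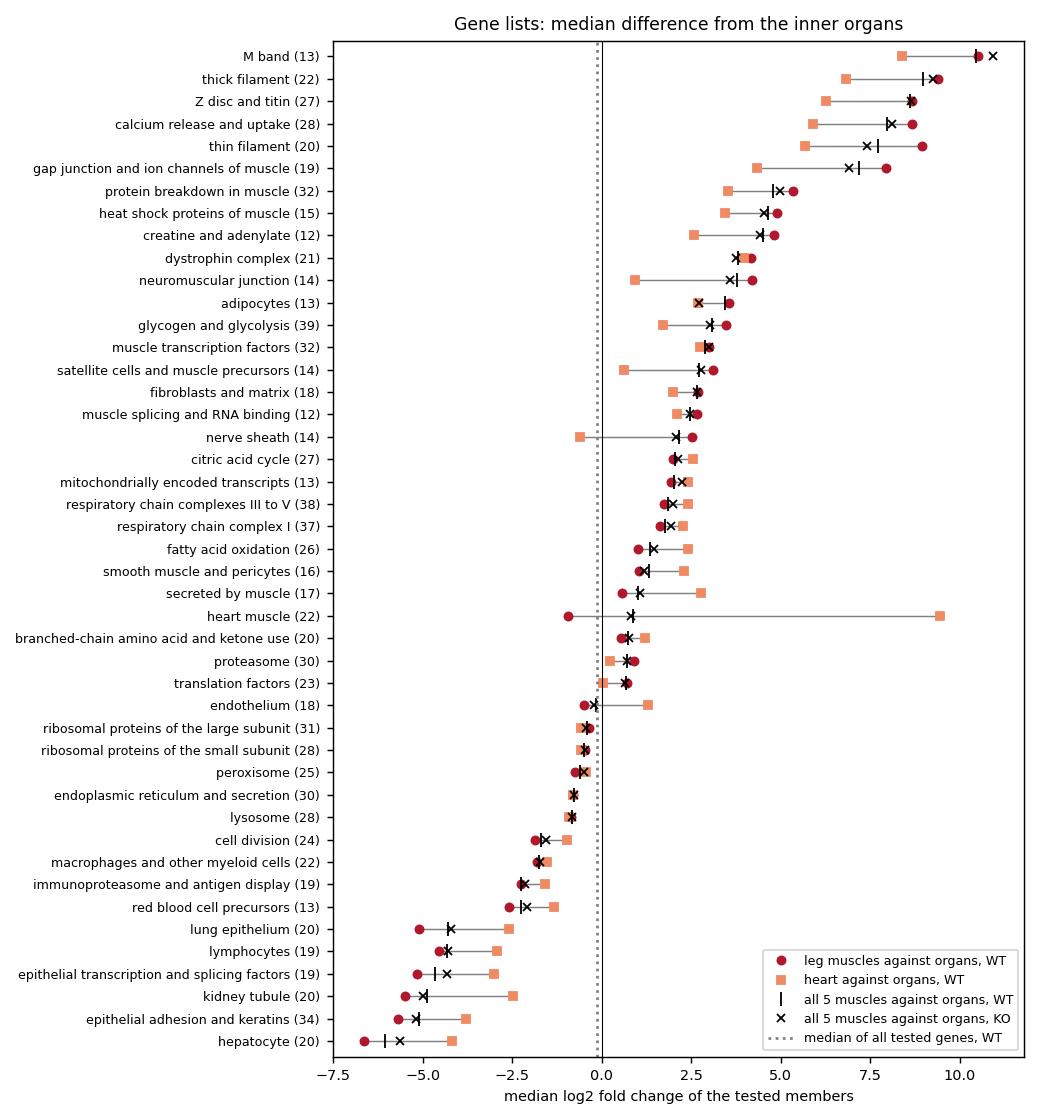
Median log2 fold change against the inner organs (x axis) of 45 gene lists (y axis, tested members in parentheses) for leg muscles, heart, all 5 muscles in WT and all 5 in KO; the dotted line is the median of all tested genes, -0.14. Sarcomere lists lie at 7.72 to 10.45 and the hepatocyte list at -6.06; the heart muscle list is at 9.43 in heart and -0.95 in leg muscle.

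Splits of this kind were then followed in 38 pairs of related genes, 1 member named as the muscle form and the other as the general or organ form. The measure was the log2 ratio of the muscle to the organ member within a library, in counts per kilobase of exon, which needs no scaling between libraries. Each ratio had 0.5 counts added to both genes, which sets the lower end where a muscle member, such as Acta1, had 0 reads in an organ library. All 38 ratios were higher in muscle in 10 of 10 mice (exact 2-sided sign-flip permutation p = 0.00195 for each, the smallest possible). The pairs were chosen for this direction, so the count is a description. For the per-mouse differences the organ mean again ran over the organs each mouse had, so their SDs can hold the effect of a missing organ. In 28 pairs all WT muscle libraries lay above all WT organ libraries, likewise 28 in KO. In 18 pairs the muscle member was ahead in every WT muscle library and behind in every WT organ library. In 32 pairs the muscle member was higher and the organ member lower by the edgeR test, and in 5 both were higher.

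Some of the pairs belong to the protein synthesis machinery. Rpl3 encodes a core protein of the large ribosomal subunit near its catalytic centre, and Rpl3l its muscle form (Entrez 66211, chromosome 17, 24727829 to 24736149). Their ratio was 0.24 to 2.74 (median 2.19) in the 25 muscle libraries and -15.90 to -6.54 (median -10.53) in the 18 organ libraries, a per-mouse difference of 12.54 ± 0.64 (SD, n = 10). Rpl3l led in every muscle, by least in heart (0.36 ± 0.12, n = 5). In CPM, Rpl3l stood at 136 to 406 (median 363) against 0 to 2.26, and Rpl3 at 59.6 to 119 (median 79.9) against 168 to 828.5 (median 258), so the organ form was lower in muscle but not lost. Eef1a2 over Eef1a1, forms of the factor that brings transfer RNA to the ribosome, was -0.19 to 1.52 (median 0.82) against -17.77 to -10.57 (median -15.23), a difference of 15.20 ± 0.52. Here Eef1a2 led in the 20 leg muscle libraries and lay just behind in the 5 hearts (-0.10 ± 0.06). Eef1a1 has near-identical copies in the genome, so its counts are uncertain.

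The respiratory chain and its exchange of ATP showed the same pattern. Cox6a2 over Cox6a1, subunits of cytochrome c oxidase, was 3.94 to 6.14 (median 5.07) in muscle and -11.48 to -2.95 (median -7.54) in organs, a difference of 12.15 ± 0.37. Cox8b over Cox8a differed by 11.23 ± 0.32. Cox7a1 over Cox7a2 differed by 6.56 ± 0.38, and Cox7a2 was itself higher in muscle (log2 fold change 1.05). Slc25a4 over Slc25a5, the carriers that export ATP from mitochondria, was 4.55 to 6.59 (median 6.14) against -6.54 to -0.23 (median -1.61), a difference of 8.45 ± 0.12. Lung was the organ nearest to balance, at -0.29 ± 0.07 (n = 5).

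Enzymes of sugar and fat use switched too. Pygm over Pygl, glycogen phosphorylases of muscle and liver, was 6.86 to 12.19 (median 10.999) against -9.71 to -1.20 (median -1.75), a difference of 13.73 ± 0.55. Slc2a4 over Slc2a1, the insulin-responsive and the general glucose transporter, was 3.74 to 5.68 (median 4.90) against -9.24 to -1.23 (median -3.42), with Slc2a1 close to even between the sides (-0.24). Pfkm over Pfkl, phosphofructokinases, was 3.498 to 10.20 (median 9.66) against -1.70 to -0.12 (median -0.68). Among WT organs the forms were nearest to even in kidney (-0.18 ± 0.07) and furthest apart in spleen (-1.62 ± 0.09). Pfkm alone had a log2 fold change of 7.58 against -1.60 for Pfkl. Cpt1b over Cpt1a, which let fatty acids into mitochondria, was 3.61 to 5.05 (median 4.60) against -7.59 to -3.15 (median -4.85), a difference of 9.57 ± 0.68.

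The widest gap was Acta1 over Actb, muscle and cytoskeletal actin, with 17.98 ± 0.54, a size that depends on the added counts, and the narrowest Akt2 over Akt1, signalling kinases downstream of insulin, with 1.85 ± 0.16. Akt2 was higher in muscle (1.87), while Akt1 had a log2 fold change of 0.00 (SE 0.04, edgeR adjusted p = 0.981) at 43.7 to 96.7 CPM against 49.8 to 79.6. Not every muscle member belonged to all muscles. In heart the organ member led in 9 pairs, with a mean log2 ratio of -6.49 ± 1.07 (SD, n = 5) for Ampd1 over Ampd2, forms of AMP deaminase, and -3.96 ± 0.47 for Atp2a1 over Atp2a3. Some organ members also ran high in heart: Hk1, a hexokinase, stood at 104 ± 7.89 CPM there, above the means of all 4 organs (3.25 to 70.4), against a muscle median of 11.3.

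**Figure D5:**
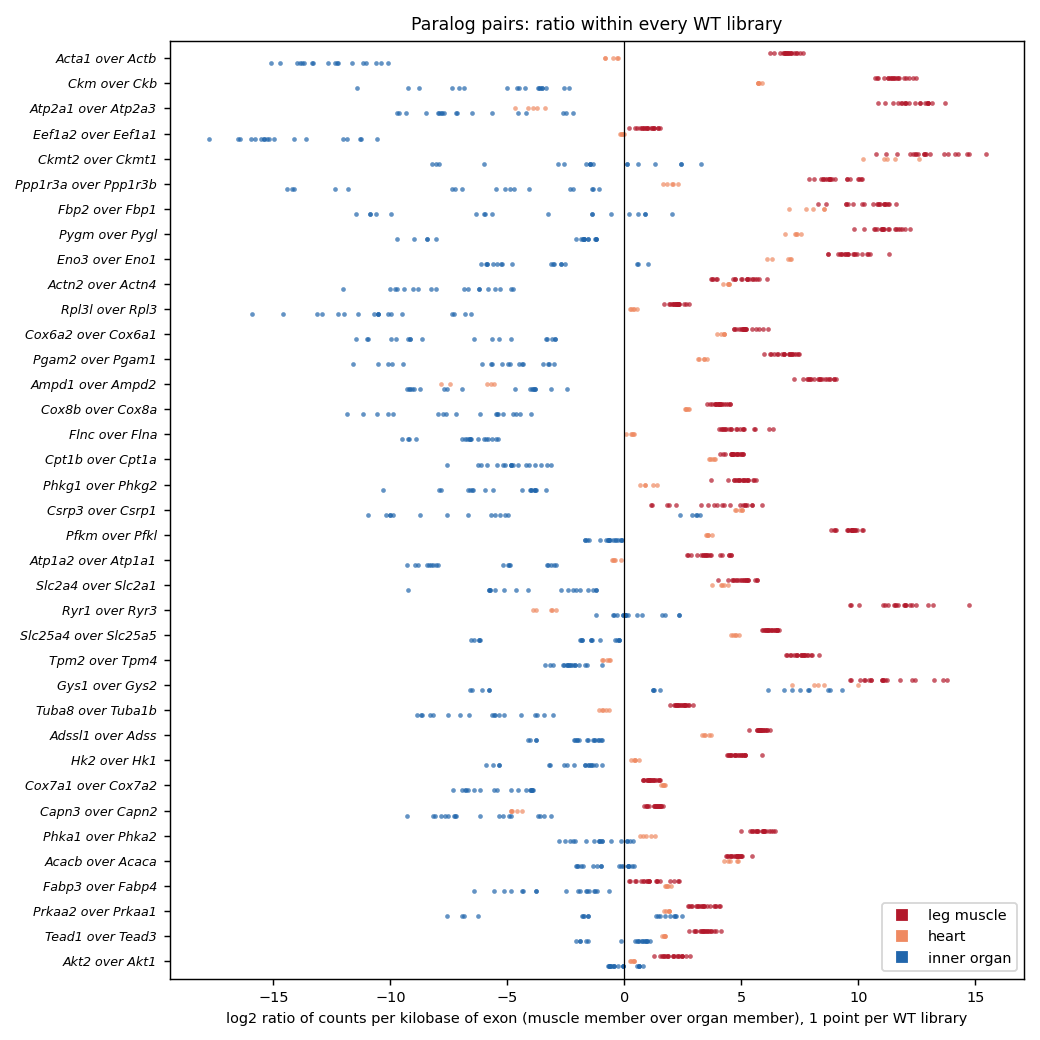
Log2 ratio of the muscle member to the organ member (x axis, counts per kilobase of exon) for 37 of the pairs (y axis, ordered by difference), 1 point per WT library; dark red marks leg muscle, orange heart and blue organs. Organ points lie left of all muscle points in 28 of these pairs and overlap them in 9; the order runs from Akt2 over Akt1 at the bottom (difference 1.85) to Acta1 over Actb at the top (17.98); hearts fall below 0 in 9 pairs.

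Among 32 transcription factors and cofactors of muscle, 23 were higher, 3 lower and 6 did not pass (median 2.88). Members of the MEF2 family, partners of the myogenic factors, were higher: Mef2a by 1.91 (145 to 267 CPM, median 190, against 33.7 to 82.6, median 45.6), Mef2d by 2.27 and Mef2c by 4.38. For Mef2c heart lay at 59.9 ± 3.36 CPM against 151 in spleen, so its muscle and organ libraries overlapped. Srf, which binds CArG boxes, had 1.66 (42.9 to 78.0 CPM, median 59.5, against 11.7 to 40.3, median 17.1), and Tead1, which binds MCAT elements, 2.87 with no overlap. Several others were mostly genes of leg muscle. Tbx15 had a median of 274 CPM over muscle with 0.429 ± 0.0872 in heart. Myf6, the myogenic factor of adult fibres, was at 0 reads in all 18 organ libraries and in heart, and averaged 146 CPM in leg muscle. Vgll2, a Tead cofactor, was at 0 reads in the organs too and averaged 51.5 CPM in leg muscle. These were among 25 of the 16842 tested genes with no read in any WT organ library, while 153 tested genes had none in any WT muscle library. Such genes passed the filter on low counts through the other side alone, so these are not counts over the whole table.

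Heart factors pulled the other way. Gata4 stood at 89.5 ± 4.83 CPM in heart, 18.7 in liver and a median of 0 over the muscle libraries. Tbx20 stood at 108 ± 6.26 in heart and Nkx2-5 at 31.3 ± 1.49, and neither passed the test of muscle against organs in WT. Tbx20 had an adjusted p of 0.587 in WT and passed in KO (edgeR adjusted p = 0.00875), and Nkx2-5, at 0 reads in 5 tissues, could not be tested by this fit. Factors of oxidative metabolism were shared with organs. Esrra had 1.52 with kidney (61.6 CPM) inside the muscle range of 44.0 to 94.5, and Ppargc1a 2.29 with kidney (58.9) above the muscle median of 39.7. Ppara was at 416 CPM in fasted liver and at a median of 20.2 over muscle, and its log2 fold change of 0.43 turned to -0.40 with library totals and to -1.36 without spleen.

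Of 12 splicing and RNA-binding genes of muscle, 12 were higher (median 2.46). Rbm20, which governs titin splicing, stood at 60.7 to 187 CPM (median 112) against 0.0372 to 5.16 (median 1.48), a log2 fold change of 6.76, highest in heart at 169 ± 10.7. Rbm24 stood at 122 to 415 (median 307) against 0 to 3.35 (median 0.355). Rbfox1 stood at 37.1 to 546 (median 339) against 0 to 2.17 (median 0.45), with heart at the low end.

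Genes of protein synthesis gave mixed values. Of 31 tested large-subunit ribosomal protein genes, 3 were higher and 25 lower (median -0.42), and of 28 small-subunit genes, 0 were higher and 26 lower (median -0.49). Without spleen these medians were -0.12 and -0.11. The summed large-subunit list had a median of 15104 CPM in spleen, against 4948 to 6561 in the other organs and 4899.5 to 6585 in the muscles. Fau, a small-subunit protein fused to a ubiquitin-like peptide, stood at 61.4 to 89.5 CPM (median 74.8) against 106 to 396 (median 163), a log2 fold change of -1.30 with no overlap. Many of these genes have near-identical copies, and Rpl30, at 0.31 to 353 CPM in organs, is uncertain for that reason. Of 23 translation factors 19 were higher and 4 lower (median 0.67), which turned to 7 and 14 (median -0.16) with library totals alone. Their summed list had medians of 11486 CPM in liver and 11271 in spleen, above every muscle (6917 to 10569). Kidney and lung had 7522 and 5601. Eif4ebp1, a brake on translation start, had 2.79 with 40.1 to 169 CPM (median 84.4) against 7.39 to 40.02 (median 9.98). All 30 proteasome genes were higher (median 0.70), or 12 higher and 16 lower (median -0.12) with library totals alone.

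Breakdown genes known for muscle stood far higher. In their list 29 of 32 were higher and 1 lower (median 4.78), and in 22 the libraries did not overlap. Fbxo32, an atrophy-linked ubiquitin ligase also called atrogin-1, stood at 221 to 5375 CPM (median 2878) against 5.92 to 22.7 (median 12.7), a log2 fold change of 7.33. Trim63, or MuRF1, stood at 188 to 5801 (median 2263) against 0 to 14.9 (median 0.363), with 11.33. Heart was the low end of both, at 260 ± 26.3 and 217 ± 32.0 CPM. The mice were fasted in both genotypes and no fed tissue was analysed here, so how much of these levels came with fasting was not tested. Of 15 small heat shock and chaperone genes, 14 were higher and 1 lower (median 4.63). Hspb6 had 6.93, Hspb7 9.35 and Cryab, alpha-B crystallin, 5.37 despite 111 CPM in kidney. Among 17 genes of proteins that muscle secretes, 8 were higher and 2 lower (median 1.004, with bounds 1.82). Myostatin, Mstn, a brake on muscle growth, had a median of 101.4 CPM over muscle, 0.387 ± 0.17 in heart and at most 0.0523 in organs. Fndc5 had 6.21, highest in heart at 253 ± 24.9 CPM.

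On the organ side, the 12 largest differences of mean log2(CPM + 1) with no overlap in either genotype were Kmo, Haao, Faah, Cfb, Rbm47, Abcc3, Tmem176a, B4galnt1, Nipsnap1, Alcam, Slc9a3r1 and Acp5. Faah (Entrez 14073, chromosome 4, 115996656 to 116017902) breaks down endocannabinoids and stood at 0.0678 to 0.787 CPM (median 0.257) in muscle and at 14.7 to 181 (median 34.3) in organs. Its log2 fold change was -7.09 (SE 0.08, edgeR adjusted p = 1.79e-46) in WT and -6.97 in KO, and liver was its highest organ at 175. Kmo and Haao, enzymes of tryptophan breakdown, had -6.57 and -7.97. Kmo stood at 0.136 to 1.004 CPM (median 0.5) against 3.08 to 361 (median 70.4), Haao at 0 to 0.86 (median 0.127) against 0.988 to 346 (median 66.4). Rbm47, an RNA-binding partner of messenger RNA editing in epithelia, stood at 0.173 to 1.85 (median 0.652) against 7.08 to 209 (median 39.7), or -5.75. Cfb, a complement factor, stood at 1.90 to 23.2 (median 7.10) against 33.1 to 1576 (median 183), or -4.90. Alcam, an adhesion molecule, was highest in lung (247 CPM) and Acp5, an acid phosphatase of macrophages, in liver and spleen (118 each). No organ was highest for all 12.

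Secretory and epithelial lists followed, to be read against 43.9% of all tested genes lower and 3.79% with all organ libraries above. In the list of endoplasmic reticulum and secretion 23 of 30 were lower and 4 higher (median -0.78), and in 12 all organ libraries lay above all muscle libraries. Pdia4, a folding enzyme of that compartment, stood at 7.83 to 22.9 CPM (median 13.02) against 50.7 to 320 (median 131), or -3.05, and Sec61b, part of its import channel, at 4.53 to 12.01 (median 6.57) against 16.0 to 41.8 (median 23.7), or -1.93. Of 28 lysosome genes, 20 were lower and 6 higher (median -0.84), led by the protease Ctsh at -3.53. Of 25 peroxisome genes, 19 were lower and 5 higher (median -0.62), a median that became 0.20 without liver. Of 34 genes of epithelial adhesion and keratins, 30 were lower and 1 higher (median -5.11, with bounds -4.80). Yet the summed list had a median of 2121 CPM in heart, above kidney (1359), liver (1520), lung (1958) and spleen (147). Leg muscles had summed medians of 109 to 155 CPM, and the median log2 fold change of the list in heart was -3.78. Cdh1, E-cadherin, stood at 0 to 1.91 CPM (median 0.612) in muscle and at 107, 32.98, 180 and 0.677 in kidney, liver, lung and spleen. Spleen was within the muscle range, so the sides overlapped. Spint2, a membrane protease inhibitor of epithelia, did not overlap in WT, with 0.43 to 18.0 (median 1.41) against 21.9 to 146 (median 77.8). Of 19 tested epithelial transcription and splicing factors, 15 were lower and 1 higher (median -4.65, with bounds -2.99).

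Genes of single organs and of blood cells were lower by large folds, which for most genes were not shared by all 4 organs. All 4 organ means lay above all 5 muscle means in 0 of 20 hepatocyte and 1 of 20 kidney tubule genes. The same held for 4 of 20 lung epithelium and 7 of 19 lymphocyte genes, against 1739 (23.5%) of the 7399 genes lower in muscle. In bulk tissue, fewer cells of a type and less RNA per cell cannot be told apart. The hepatocyte list had 19 of 20 lower (median -6.06), the kidney tubule list 16 of 20 (median -4.89), the lung epithelium list 16 of 20 (median -4.29) and the lymphocyte list 19 of 19 (median -4.33). None of the first 3 lists had a higher member. The summed lymphocyte list gave 1.77 to 10.4 CPM over muscle libraries and 2855 to 3028 in spleen, but 7.91 to 12.5 in kidney. Of 22 macrophage and myeloid genes 19 were lower and 1 higher (median -1.74). Of 19 genes of the immunoproteasome and antigen display, 19 were lower (median -2.27), with B2m, the light chain of class I molecules, at 56.2 to 202 CPM (median 87.1) against 142 to 1818 (median 727), or -2.54. Of 24 cell division genes, 22 were lower and 2 higher (median -1.69). Their main organ was spleen: Mki67, a marker of cycling cells, stood at 181 CPM there, 9.40 in lung, 1.41 in liver and 6.77 ± 1.02 in heart.

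Cells that share muscle with its fibres gave mixed values. Of 18 fibroblast and matrix genes, 17 were higher and 0 lower (median 2.65). Dcn, the matrix proteoglycan decorin, stood at 631 to 1467 CPM (median 1047) against 22.1 to 190 (median 116), or 3.70 with no overlap. The summed list ran from 2020 to 8656 CPM in muscle and from 365 to 2816 in organs. Of 13 adipocyte genes, 12 were higher and 1 lower (median 3.43). The summed list ran from 1304 to 5021 CPM in muscle and 58.6 to 782 in organs. Among its markers, Adipoq stood at 2.53 to 38.4 CPM (median 9.71) against 0 to 8.47 (median 1.04), and Plin1 at 0.717 to 10.96 (median 2.997) against 0 to 4.93 (median 0.551). Fabp4, a fatty acid carrier that endothelium holds too, stood at 130 to 734 CPM (median 241) against 2.61 to 104 (median 11.7). Car3, a carbonic anhydrase that fibres hold too, had a median of 2076 CPM in muscle and 21.4 ± 11.4 in heart. Of 14 nerve sheath genes, 13 were higher and 1 lower (median 2.16). The whole list summed to 110 to 802 CPM in leg muscle, 59.1 to 63.7 in heart and 384 to 418 in lung. What part such cells have in the matrix, fat and nerve results was not tested.

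Vessel genes did not go 1 way. Of 18 endothelial genes, 6 were higher and 10 lower (median -0.16), near all tested genes (40.4% higher, 43.9% lower, median -0.14). With library totals alone 0 of the 18 were higher and 17 lower. The list median was -0.49 for leg muscles and 1.29 for heart. Flt1, a receptor for VEGF, stood at 106 ± 6.60 CPM in heart (n = 5), and its log2 fold change of 0.77 turned to -0.06 with library totals. Plvap, which builds the diaphragms of permeable capillaries, was at 5.79 to 15.8 CPM (median 8.46) in muscle and 30.2 to 171 (median 108) in organs, or -3.29 with no overlap. Heart, at 10.2 ± 2.06, was like the leg muscles here. Of 16 smooth muscle and pericyte genes, 12 were higher and 2 lower (median 1.30), several of them, such as Des, also genes of fibres. Myh11 and Acta2, which are more specific, had 0.50 and 0.55, and turned to -0.32 and -0.27 with library totals. Of 14 tested neuromuscular junction genes, 10 were higher and 3 lower (median 3.78), with a heart median of 0.92. Of 14 genes of satellite cells and muscle precursors, 10 were higher and 3 lower (median 2.71), yet the summed level of the list was 205 to 284 CPM in leg muscle and 260 to 615 in the organs.

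Leg muscles and heart were also tested each against the same organ libraries. Against the organs, 6822 genes (40.5%) were higher and 7508 (44.6%) lower in leg muscles, and 6205 (36.8%) and 6626 (39.3%) in heart. In both, 4549 genes were higher and 5238 lower. In 885 genes leg muscle was higher and heart lower than the organs, and in 1003 the reverse. These contrasts share the organ libraries, and the difference between leg muscle and heart was not tested here. The heart muscle list showed the split most plainly, with a median of -0.95 in leg muscle and 9.43 in heart, so its median of 0.87 over 5 muscles describes neither. Actc1, cardiac actin, stood at 3533 ± 336 CPM in heart, at 28.4 ± 23.9 in EDL and at 197 ± 48.8 in gastrocnemius (n = 5 each). Casq2, which holds calcium in the cardiac store, kept all muscles above the organs, at 10.5 to 518 CPM (median 18.7) against 0 to 2.08.

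Some genes barely differed. Of 1342 genes at 100 CPM or more on average, the 5 with the least spread over the 9 tissues were Hp1bp3, Eif4h, Tcf25, Hnrnpk and Golgb1. Hp1bp3, a heterochromatin protein, stood at 98.4 to 124 CPM (median 108) in muscle and at 88.7 to 122 (median 115) in organs, a log2 fold change of 0.01 (SE 0.03, edgeR adjusted p = 0.734). Hnrnpk, an RNA-binding protein, had -0.20 and Golgb1, a protein of the Golgi, -0.12, and both passed the test at these small sizes. Tcf25 had 0.13, which turned to -0.70 with library totals alone. Evenness here is thus relative to the TMM scaling.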

How the data were processed

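Libraries were made from polyA RNA with MagMax extraction and the KAPA Stranded mRNA-Seq kit, per the labels' protocols. The authors deposited expected counts per gene, which are not whole for every gene (85.6% of values were whole), and RPKM values that the counts, exon lengths and library totals gave back within a ratio of 1 to 1.00001. The genome build was mm10, per the submitters' processing notes. The aligner, the counting tool and any use of strand were not given in the sources used here. In all, the table held 24453 genes and 22 rows for reporters and other markers, which took at most 0.0323% of a library and stayed out of the tests. The planned test assumed whole counts, and the expected counts were rounded first.

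Genes were filtered with filterByExpr (minimum count 10, minimum total 15), scaled by TMM and tested with edgeR 4.0.16 (R 4.3.3), with 1 coefficient per tissue. Benjamini-Hochberg adjustment ran over all genes tested. Counts were also simulated from 1 pooled profile for all tissues, with few genes changed. There the test called 77% of genes changed by 1.5-fold and 100% of those changed by 2-fold. It also called 9 unchanged genes among 16062 tested. The simulation lacked the wide tissue differences of these data, so its rates do not describe this contrast. Folds are printed only where each tissue held at least 4 reads over its libraries, and a share of libraries at 0 reads is read against a floor of 3 reads. Intervals and floors cover counting error only. DESeq2 1.42.0, limma 3.58.1, other scalings, other filters, mice and tissues left out, and other pseudocounts were tried as alternatives.

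The same animal number joins libraries of different tissues. Deviations from the tissue means of 2 libraries of 1 mouse had a mean correlation of 0.0876 in WT (61 of 164 pairs above 0.1) and 0.0682 in KO (52 of 180). No 2 replicates agreed within sampling noise. Pair ratios used 0.5 counts added to each gene.

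Genes are named by rule: the 12 with the largest difference of mean log2(CPM + 1) each way among those without overlap in WT and KO, up to 3 per list, the members of the 38 pairs, muscle transcription factors, tissue markers, Cdh15 and the 5 most even genes. Some genes so named are not reported here. The members, the 45 lists and the pairs were chosen with earlier results of these data known.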

Additional observations from a re-analysis of the deposited data

Results flagged for a closer look

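In 8 of 72 checks (18 groups of libraries, 4 shares of counts each) 1 library lay far from the others of its group, where chance gives about 1 in 20; shares of 1 library are not independent. For mitochondrially encoded transcripts these were WT spleen of mouse 3805673 at 13.4% (others 4.25% to 4.73%), KO spleen of mouse 3817943 at 8.88% (4.58% to 4.98%), KO kidney of the same mouse at 18.4% (21.8% to 23.0%) and WT EDL of mouse 3817948 at 23.0% (16.1% to 17.5%). For sarcomere genes they were WT spleen of mouse 3805673 at 0.153% (0.118% to 0.123%) and WT liver of mouse 3817948 at 0.0329% (0.0268% to 0.0285%). For ribosomal protein genes they were KO spleen of mouse 3817943 at 4.97% (6.01% to 6.26%) and WT lung of mouse 3805673 at 2.59% (2.37% to 2.42%).

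In 885 genes leg muscle was higher and heart lower than the organs, and in 1003 the reverse; the difference between leg muscle and heart itself was not tested. Among marker rows outside the comparisons, LacZ had a median of 118 reads (47 to 179) in the 20 KO leg muscle libraries and 0 to 3 reads in the WT ones. A row named SV40 summed to 150 reads in KO leg muscle and to 0 in WT leg muscle.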

How the results depend on the processing

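The mouse as a replicate block changed no count by over 1.5 times: it gave 6811 genes higher and 7435 lower in WT and 6774 and 7513 in KO, and it changed no call of a named gene or list. The pair differences are taken within each mouse and had no such fit. Library totals only, without scaling factors, gave 3439 and 11247 in WT, 3409 and 11317 in KO, 3419 and 11347 for leg muscle, 4013 higher for heart, and 501 and 1610 genes with muscle or organ libraries above. They turned Acta2 to -0.27, Capn2 to -0.44, Cdh5 to -0.29, Flt1 to -0.059, Myh11 to -0.32, Ppara to -0.40, Prkaa1 to -0.72, Tcf25 to -0.70, and the medians of branched-chain amino acid use to -0.095, translation factors to -0.16 and the proteasome to -0.12. A minimum change of log2 1 (glmTreat) gave 3064 and 3758 in WT and 3031 and 3737 in KO.

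Leaving out a tissue moved genes that rest on it. Without liver Acta2 was -0.62, Myh11 -0.51, Phka2 0.081, Pparg 0.046, Prkaa1 -0.10, Prox1 0.95, Tead3 0.060 and the peroxisome median 0.20, and 1023 genes had organs above. Without lung Flna was 0.13, Pecam1 0.54, Ppara -0.28, Tead3 0.052 and the endothelium median 0.52. Without spleen Flna was 0.26 and Ppara -1.36, and 1090 genes had organs above. Without heart Myocd was -0.15 and the heart muscle median -0.99, and 2052 genes had muscle and 1092 organs above. Without EDL Pecam1 was 0.0082 and the endothelium median 0.075, without gastrocnemius Pecam1 was 0.012, and without tibialis Prox1 was 0.089. The cause of these shifts was not tested beyond the samples left out.

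Without each mouse in turn the counts were 6664 to 6758 higher and 7161 to 7304 lower in WT, 6621 to 6739 and 7203 to 7361 in KO, 6673 to 6774 and 7292 to 7422 for leg muscle and 6060 to 6128 and 6257 to 6380 for heart. Genes without overlap were 1190 to 1233 and 686 to 730, and the KO and WT difference had 0 genes higher and 0 to 1 lower, the 1 being without mouse 3793546. Without the spleen libraries that stood apart, a choice made after seeing the data, WT gave 6865 and 7376 and KO 6817 and 7453. With 3 WT mice holding all 9 tissues, limma on 1 value per mouse gave 6307 and 7991.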

Other observations

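Kmo and Haao, 2 of the largest differences on the organ side, act in the kynurenine route of tryptophan breakdown, and its other enzymes were looked up after these values were seen. Kynu, which acts between them, stood at 0 to 0.339 CPM (median 0.0838) in WT muscle and at 1.38 to 233 (median 9.40) in organs, a log2 fold change of -6.85 in WT and -7.26 in KO with no overlap in either. Afmid, an earlier step, had -2.63, but lung (2.57 CPM) lay below the muscle median of 4.05, so the sides overlapped. Qprt and Acmsd, later steps, averaged 85.2 and 16.1 CPM in liver and 27.8 and 32.3 CPM in kidney, against muscle medians of 0.288 and 0, and lung, at 0.0838 and 0.123 CPM, lay within the muscle range. The entry enzyme Tdo2 averaged 2358 CPM in liver and under 1 CPM in each of the other organs, which lay below tibialis (1.03 CPM). Ido1, another entry enzyme, did not pass (edgeR adjusted p = 0.502). It stood at 0 to 0.450 CPM in WT muscle and at 0 to 0.841 in organs. Of the enzymes that turn kynurenine to kynurenic acid, Got2 was higher in muscle (2.01), and Ccbl1 and Ccbl2 were slightly lower (-0.49 and -0.16). The sides overlapped for each, and Got2 averaged 607 CPM in liver against a muscle median of 534. Ccbl1 had a muscle median of 14.0 CPM, below kidney (57.3) and liver (106) but above lung (6.85) and spleen (3.63), and Ccbl2 split likewise. Aadat, another enzyme of this step, averaged 196 CPM in kidney and 143 CPM in liver and had 0 reads in the leg muscles and spleen, so no fold is given.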
